A study of Mus musculus with 12 samples.

Results

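Adventitial fibroblasts are the matrix-producing cells of the outer layer of the aorta. The results concern the interaction of aortic site and TGFβ treatment, that is, the change with TGFβ in ascending fibroblasts minus the change with TGFβ in descending fibroblasts, on the log2 scale. A positive interaction means that the log2 change was the more positive one in ascending fibroblasts. It was tested in every gene with enough counts over the 12 libraries of the bulk RNA sequencing, which are all the libraries of the series, and again over 11 libraries, without descending control replicate 3. Of 54352 gene symbols, 14637 had enough counts to be tested over 12 libraries and 15013 over 11.

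The cells were primary cultures from wild-type C57Bl/6 mice, 14 weeks of age by the labels, passaged once by the labels and in batch 1. They were grown out of pieces of adventitia from the aortic root and ascending aorta (ascending) or the descending aorta (descending) in medium with fetal bovine serum, and received TGFβ at 10 ng/mL or its solute for 48 h. The 4 groups were descending control, descending TGFβ, ascending control and ascending TGFβ, with 3 libraries in each. No label names a transgene, and the groups shared strain, serum and passage. The labels do not say whether libraries of a group came from separate animals, so p-values measure only the spread between these libraries, which may be technical. Every culture was bulk RNA, in which fewer cells of a type and less RNA per cell cannot be told apart.

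TGFβ is a secreted cytokine that signals through a pair of receptor kinases and SMAD transcription factors. In fibroblasts it is known for raising collagen, elastin and contractile genes and for inducing its own inhibitors. The ascending and the descending aorta differ in their embryonic origin, and the root and ascending segments are those most often dilated when TGFβ signalling is disturbed. An interaction asks whether the same dose moved a gene equally far at both sites, which neither the site comparison nor the treatment comparison alone can answer.

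Between 18793120 and 23892943 reads were counted on genes in 11 libraries, and 16250126 in descending control replicate 3. Reads of that library fell on 13031 genes, while 19337 to 20931 genes were seen elsewhere. Mitochondrial genes took 11.02% of its reads and 0.703 to 1.03% elsewhere. It is called the odd library below, and its value is always the third of descending control. Levels are given as normalized CPM, a count relative to the library total after TMM scaling, in the order replicate 1, 2 and 3. The floor, set at 3 counts, lay between 0.117 and 0.207 normalized CPM and covers counting error only.

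The fibroblast markers (*Col1a1*, *Col1a2*, *Dcn*, *Lum*, *Pdgfra* and *Dpt*) summed to 10450.0 to 23166 normalized CPM in every library. The 5 endothelial markers summed to at most 1.90, with 1 of them at 0 counts in every library, and the 3 epithelial markers were at or under the floor in each. The 5 macrophage markers summed to 6.76 to 12.5 in the other groups but to 15.3 to 65.6 in ascending control. The 4 mesothelial markers summed to 30.0 to 40.0 in ascending control and 16.3 to 23.1 in ascending TGFβ, against at most 1.69 in descending libraries. The 3 adipocyte markers summed to 22.2 to 28.6 in descending control, 9.74 to 18.3 in descending TGFβ and at most 4.95 in ascending libraries. Members of these minor lists that passed the interaction test over 11 libraries were *Cidec* of the adipocyte list, *Mbp* of the Schwann list and *Tnnt2* of the cardiomyocyte list, and *Cidec* and *Mbp* did not pass without any 1 of 7 and 5 further libraries. The part of these cells in the results below was not tested.

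Over 12 libraries the interaction passed the test in 118 genes, 0.806% of those tested, 47 positive (0.321%) and 71 negative (0.485%). Over 11 libraries it passed in 2022 genes, 13.5% of those tested, 911 positive (6.07%) and 1111 negative (7.40%). All 118 genes were among the 2022, with the same sign. The two-sided quasi-likelihood test of edgeR was used, at a Benjamini-Hochberg adjusted p under 0.05. The number of genes with an unadjusted p under 0.05 was 1464 over 12 libraries and 3657 over 11. The median standard error of an interaction fell from 0.35 to 0.14 on the log2 scale when descending control replicate 3 was left out. The median interaction of all genes tested was -0.061 over 12 libraries and 0.0057 over 11.

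The count over 12 libraries moved with most single libraries. Without descending control replicate 3 it was 2022, without descending control replicate 1 it was 131 and without replicate 2 it was 82. Without any 1 of the 3 descending TGFβ libraries it was 35 to 45, without any 1 of the 3 ascending controls 34 to 47, and without any 1 of the 3 ascending TGFβ libraries 25 to 37. Over 11 libraries the count stayed between 1362 and 1975 with each further library left out in turn. Limma's voom with a weight for each library gave descending control replicate 3 a weight of 0.0122, and with all 12 libraries it called 1979 genes. Of these, 1850 were among the 2022, which is 93.5% of the genes voom called and 91.5% of the 2022. With so small a weight the library hardly counted. The counts of weighted voom below therefore come close to a fit of 11 libraries and do not show that calls hold with the library kept.

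**Figure D1:**
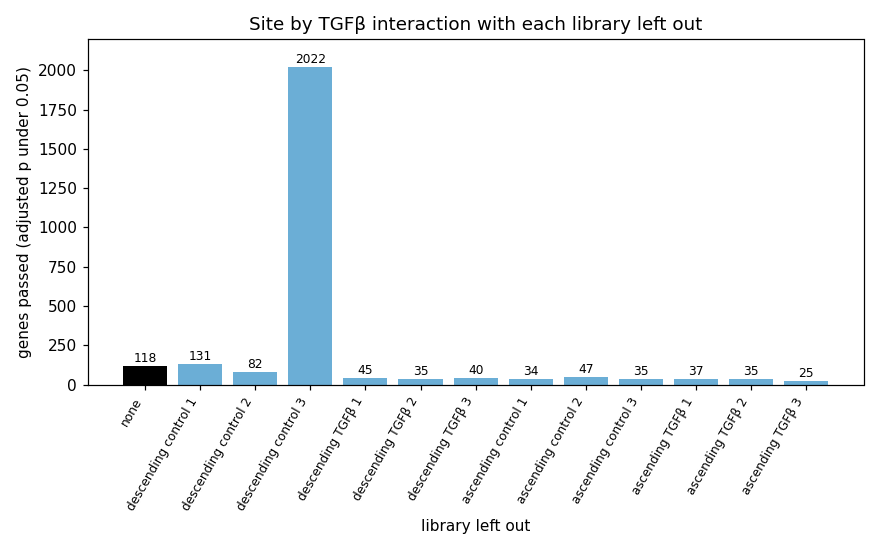
Bars give the number of genes whose site by TGFβ interaction passed edgeR's test (adjusted p under 0.05) with all 12 libraries (black, 118) or with 1 library left out (blue). Leaving out descending control 3 gave 2022 genes, while leaving out any other library gave 25 to 131.

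Descending control replicate 3 was part of the fit that chose the 118 genes, so a gene in which it lay far from its group could hardly pass, and its smaller distance over the 118 is a description of that choice. Its median distance from the mean of the other descending controls was 0.93 on the log2 scale over all genes tested and 0.26 over the 118. Descending controls 1 and 2 were 0.11 apart by the same measure over all genes tested. The median shift of an interaction when the library was left out was 0.29 over all genes and 0.081 over the 118. Where both interactions of a gene are given below, that over 12 libraries comes first, and where 1 is given its fit is named. A gene is said to pass in both fits where both adjusted p were under 0.05.

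The plain changes with TGFβ passed the test in 2338 genes in ascending (16.0%) and 3570 in descending fibroblasts (24.4%) over 12 libraries. Over 11 libraries they passed in 7878 (52.5%) and 7704 (51.3%), so about equally many genes responded at each site once that library was left out. With 0.5 on the log2 scale as the threshold of a response, 517 of the 2022 genes responded in descending fibroblasts alone and 244 in ascending fibroblasts alone. A further 347 responded at both sites in the same direction and farther in descending fibroblasts, and 187 did so farther in ascending fibroblasts. Opposite directions were seen in 50 genes, 34 of which fell in ascending and rose in descending fibroblasts, and the other 677 moved by less than the threshold at both sites. Among the 118, the classes held 41, 16, 32, 18, 7 and 4 genes in the same order. All genes tested over 12 libraries fell into these classes as 3435, 1308, 1797, 1113, 247 and 6737. Over 11 libraries the numbers of all genes tested were 1666, 1224, 1791, 1540, 151 and 8641. The lean to descending fibroblasts alone was thus also seen over all genes tested, above all over 12 libraries. The 41 genes of the 118 that responded in descending fibroblasts alone were 23 falls and 18 rises.

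**Figure D2:**
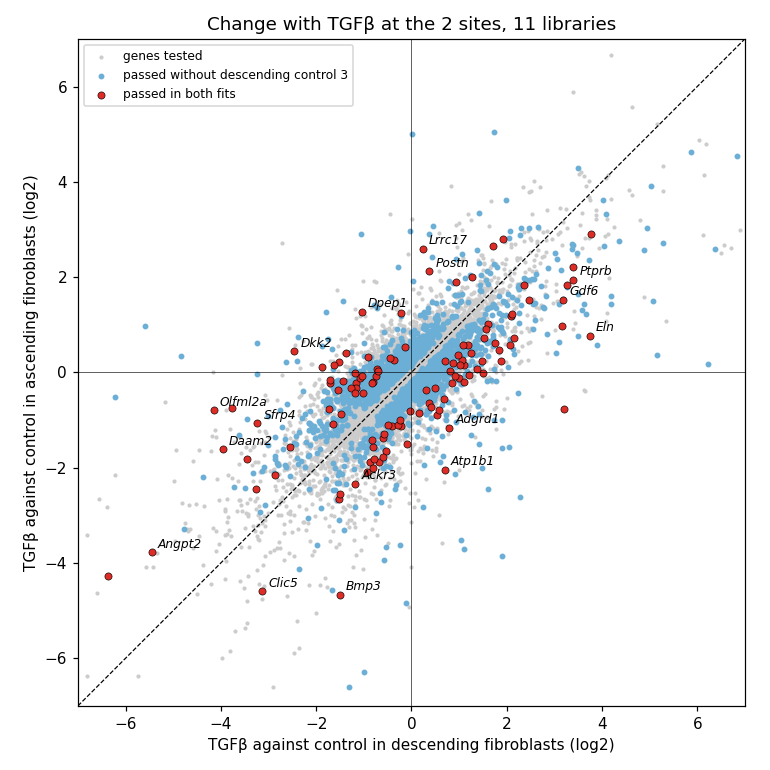
Each point is a gene, with the log2 change with TGFβ in descending fibroblasts on the x axis and in ascending fibroblasts on the y axis, from the fit of 11 libraries. Grey points were tested, blue points passed the interaction test over 11 libraries (2022 genes), and red points passed in both fits (118 genes). Points on the dashed diagonal changed equally, and 11 genes, 2 of them passing, lie outside the axes.

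A site gap, the log2 difference between ascending and descending fibroblasts in 1 treatment, was called large at 1 or more, which is 2-fold. It was closed by TGFβ (large in control, smaller than 1 with TGFβ) in 31 of the 118 genes and in 213 of the 2022. It was opened (smaller than 1 in control, large with TGFβ) in 28 of the 118 and 197 of the 2022. The gap was large in both treatments but narrower with TGFβ in 7 and 76 genes, wider in 4 and 40, and of the opposite sign in 1 and 20. In the other 47 of the 118 and 1476 of the 2022, the gap was below 1 in both treatments. At this threshold closing and opening were about as frequent among the genes that passed, but the balance moved with the threshold. At a gap of 1.5, 22 gaps closed and 13 opened among the 118, and 122 and 65 among the 2022. At a gap of 0.5 the counts were 43 and 37 among the 118, and 367 and 413 among the 2022. Over all genes tested, the count at a gap of 1 differed between the fits, since 1348 gaps closed and 584 opened over 12 libraries, against 691 and 642 over 11. The closed genes of the 2022 were higher in ascending control in 129 cases and in descending control in 84, and over 12 libraries the split was 13 and 18. The opened genes were higher with TGFβ in ascending fibroblasts in 110 cases and in descending fibroblasts in 87, and over 12 libraries the split was 10 and 18.

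**Figure D3:**
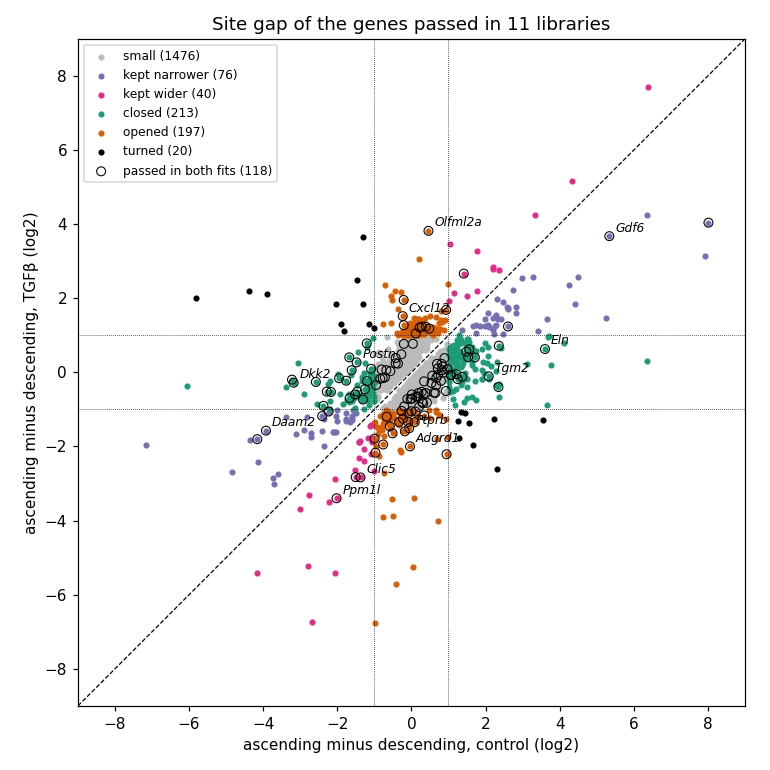
Each point is a gene that passed over 11 libraries, with the log2 gap between ascending and descending fibroblasts in control on the x axis and with TGFβ on the y axis. Dotted lines mark a gap of 1, colours mark the 6 classes with their numbers of genes, and circles mark the 118 genes that passed in both fits. Closed genes lie in the horizontal band near 0 and opened genes in the vertical band.

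Among gaps that TGFβ closed from above, *Eln*, which encodes elastin, had the smallest adjusted p of all genes. *Eln* lies on chromosome 5 from 134702593 to 134747323 of GRCm38, as do all positions below, and another gene holds 2.82% of the 50-base sequences of its exons. It was at 135, 118 and 101 normalized CPM in descending control and 1722, 1642 and 1727 with TGFβ, and at 1549.7, 1595 and 1468 in control and 2874, 2465 and 2552 with TGFβ in ascending fibroblasts. Thus the descending libraries with TGFβ reached the level that ascending controls already had, and no other pair of groups came close. The gap was 3.70 in control and 0.63 with TGFβ on the log2 scale. The interaction was -3.07 (standard error 0.15, edgeR adjusted p = 1.42e-05) over 12 libraries and -2.98 (standard error 0.077, edgeR adjusted p = 1.91e-18) over 11.

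The same shape was seen in *Tgm2*, which encodes transglutaminase 2, an enzyme that cross-links matrix proteins. On chromosome 2 from 158116402 to 158146436, with 18.7% of its exon sequences shared (mostly with *Gm20412*), *Tgm2* was at 15.6, 15.6 and 4.97 normalized CPM in descending and 66.2, 65.4 and 67.5 in ascending control. With TGFβ it reached 145, 129 and 147 in descending and 124, 141 and 126 in ascending fibroblasts. The control groups did not overlap, whereas the groups with TGFβ did. The interaction of *Tgm2* was -2.55 (standard error 0.44, edgeR adjusted p = 0.0255) over 12 libraries and -2.20 (standard error 0.092, edgeR adjusted p = 3.03e-14) over 11.

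*Dusp4*, a phosphatase of MAP kinases, rose in descending fibroblasts from 103, 109 and 83.2 to 208, 216 and 215 normalized CPM. It was at 237, 221 and 205 in ascending control and 201, 211 and 199 in ascending TGFβ, levels that the descending libraries met only with TGFβ. The interaction of *Dusp4* was -1.23 (standard error 0.14, edgeR adjusted p = 0.00472) over 12 libraries and -1.13 (standard error 0.069, edgeR adjusted p = 3.39e-11) over 11.

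*Nrg1* and *Wnt9a*, both secreted ligands, closed in the same direction but passed only over 11 libraries. *Nrg1*, a ligand of ERBB receptors, went from 10.4, 9.68 and 22.5 to 68.5, 75.1 and 73.3 normalized CPM in descending and from 47.5, 52.9 and 49.3 to 90.1, 85.7 and 85.9 in ascending fibroblasts, and 4.09% of its exon sequences are shared. Its interaction was -1.56 (edgeR adjusted p = 0.0942) over 12 libraries and -2.05 (standard error 0.094, edgeR adjusted p = 1.25e-13) over 11. *Wnt9a* had 5.14, 4.21 and 0 normalized CPM in descending control, with the odd library at 0, and 60.5, 56.2 and 55.8 with TGFβ. Since it was at 14.2, 13.4 and 12.1 in control and 33.7, 37.4 and 36.4 with TGFβ in ascending fibroblasts, descending fibroblasts passed from below to above them. The interaction of *Wnt9a* was -2.18 (standard error 0.13, edgeR adjusted p = 1.86e-11) over 11 libraries, and its adjusted p over 12 was 0.295 in the same test.

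Gaps that favoured ascending control also closed by a fall in ascending fibroblasts. *Fhl1*, a LIM-domain protein of muscle and fibroblasts, fell from 486, 456 and 477 to 224, 208 and 215 normalized CPM in ascending fibroblasts. In descending fibroblasts it was at 164, 174 and 149.8 in control and 145, 145 and 149 with TGFβ. The treated ascending libraries stayed above every descending one. Its interaction was -0.98 (standard error 0.11, edgeR adjusted p = 0.00411) over 12 libraries and -0.93 (standard error 0.059, edgeR adjusted p = 7.03e-11) over 11. *Atp1b1*, a subunit of the sodium pump that shares 15.8% of its exon sequences with *Nme7* and other genes, fell from 23.9, 26.4 and 24.7 to 7.16, 5.44 and 5.70 in ascending fibroblasts. In descending fibroblasts it was at 4.09, 5.77 and 1.45 in control and 7.96, 8.30 and 7.71 with TGFβ, higher in every treated library than in any control. The interaction of *Atp1b1* was -3.09 (standard error 0.49, edgeR adjusted p = 0.0186) over 12 libraries and -2.74 (standard error 0.19, edgeR adjusted p = 1.78e-10) over 11. *Nkain4*, whose product associates with the sodium pump, fell from 124, 127 and 126 to 24.2, 21.8 and 23.4 in ascending fibroblasts and was at 34.8, 31.9 and 8.97 in control and 23.9, 28.5 and 26.3 with TGFβ in descending fibroblasts. It passed over 11 libraries alone, with an interaction of -2.09 (standard error 0.095, edgeR adjusted p = 1.2e-13) and an adjusted p of 0.0603 over 12 in the same test.

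In the other direction, gaps that favoured descending control were closed by a fall in descending fibroblasts. *Dkk2*, which encodes a secreted antagonist of Wnt signalling (chromosome 3 from 132085292 to 132180304), went from 47.8, 50.5 and 114 to 9.14, 9.33 and 8.37 normalized CPM in descending fibroblasts. In ascending fibroblasts it was at 5.00, 5.45 and 5.85 in control and 7.94, 7.19 and 7.02 with TGFβ. The treated descending libraries, 8.37 to 9.33, stayed above the treated ascending ones, 7.02 to 7.94, but within a gap of -0.28 on the log2 scale. The interaction was 3.42 (standard error 0.42, edgeR adjusted p = 0.0054) over 12 libraries and 2.90 (standard error 0.14, edgeR adjusted p = 2.59e-13) over 11. *Gpm6b*, a membrane proteolipid, fell from 63.5, 65.7 and 90.2 to 3.88, 6.02 and 4.30 in descending fibroblasts and was at 4.87, 9.60 and 6.48 in control and 4.23, 3.22 and 4.92 with TGFβ in ascending fibroblasts, so that the groups with TGFβ overlapped. Its interaction was 3.19 (standard error 0.39, edgeR adjusted p = 0.00548) over 12 libraries and 3.03 (standard error 0.27, edgeR adjusted p = 1.44e-08) over 11.

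A far larger rise in ascending fibroblasts closed the gap of *Postn*, which encodes periostin, a matricellular protein of fibrotic tissue. Located on chromosome 3 from 54361109 to 54391037, it was at 150.1, 162 and 149 normalized CPM in ascending control and 665, 668 and 673 with TGFβ. In descending fibroblasts it was at 420.4, 437 and 993 in control and 560.1, 568 and 533 with TGFβ, with the odd library far above the others. Its change with TGFβ in descending fibroblasts was -0.16 over 12 libraries and 0.37 over 11, against 2.12 in ascending fibroblasts over 11. The interaction of *Postn* passed in both fits, at 2.28 (standard error 0.38, edgeR adjusted p = 0.0228) and 1.75 (standard error 0.056, edgeR adjusted p = 1.34e-16). *Megf10*, a receptor with EGF-like repeats, rose from 16.8, 19.3 and 17.6 to 42.0, 41.6 and 44.1 in ascending fibroblasts and was at 91.1, 94.7 and 77.6 in control and 69.3, 83.9 and 84.9 with TGFβ in descending fibroblasts. *Cdh11*, the cadherin of fibroblasts, went from 156, 168 and 165 to 393, 376 and 408 in ascending and from 318, 343 and 863 to 434, 431 and 402 in descending fibroblasts. With TGFβ the sites overlapped in *Cdh11* and not in *Megf10*. The interaction of *Megf10* was 1.39 over 12 libraries (edgeR adjusted p = 0.00411), and that of *Cdh11* passed over 11 libraries alone (interaction 0.91, standard error 0.064, edgeR adjusted p = 2.76e-10).

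**Figure D4:**
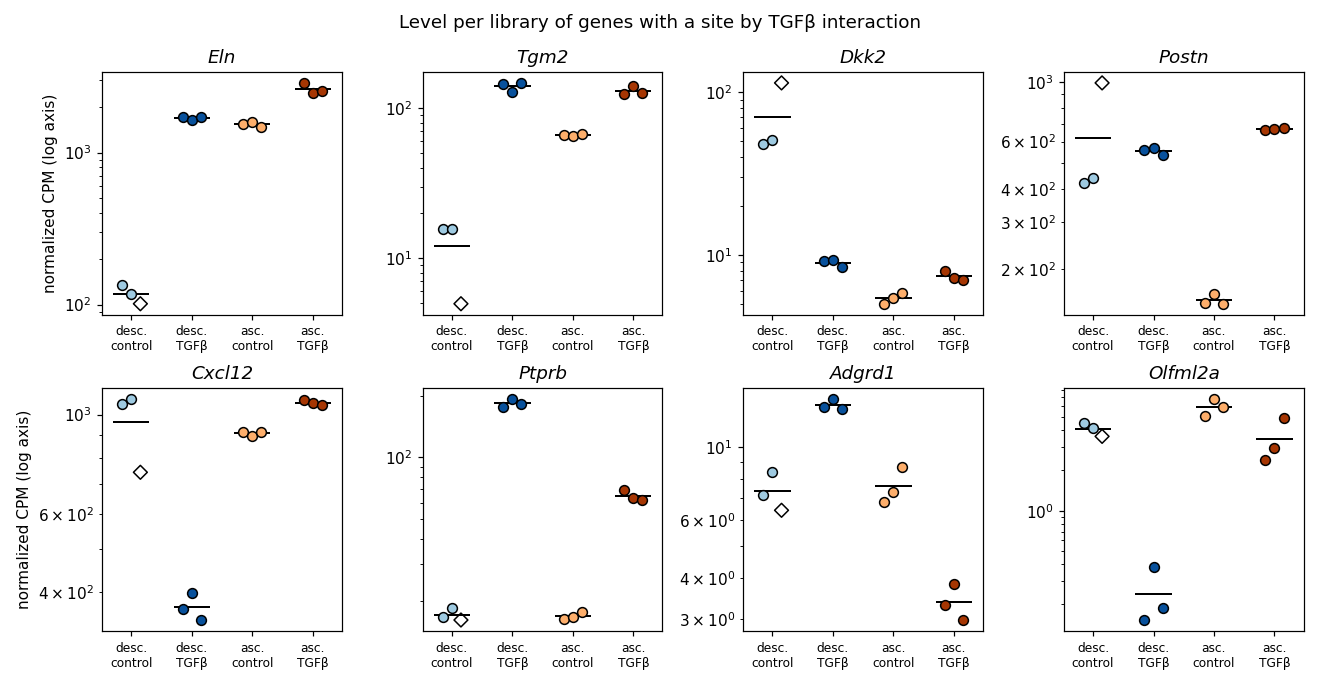
Levels in normalized CPM (log axis) of 8 genes in each of the 12 libraries, with bars at the group means of 3 libraries. Open diamonds mark descending control replicate 3. In *Eln*, *Tgm2*, *Dkk2* and *Postn* the control groups lie apart and the groups with TGFβ lie closer, while in *Cxcl12*, *Ptprb*, *Adgrd1* and *Olfml2a* the control groups lie close and the groups with TGFβ lie apart.

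Gaps that TGFβ opened began with similar levels at the sites. *Cxcl12*, a chemokine that holds progenitor cells and leukocytes in tissue, lies on chromosome 6 from 117168535 to 117181367. It was at 1055, 1082 and 743 normalized CPM in descending and 914, 893 and 916 in ascending control. With TGFβ it was at 367, 399 and 347 in descending and 1080.0, 1064 and 1048 in ascending fibroblasts. The treated groups did not overlap, and the descending ones lay below every control. The interaction was 1.60 (standard error 0.18, edgeR adjusted p = 0.00411) over 12 libraries and 1.75 (standard error 0.058, edgeR adjusted p = 1.75e-16) over 11. *Ackr3*, the atypical receptor that takes up this chemokine, moved the other way. It fell from 132, 139 and 127 to 27.5, 24.2 and 27.4 in ascending and from 87.3, 86.7 and 71.1 to 37.5, 40.8 and 37.1 in descending fibroblasts, an interaction of -1.24 (standard error 0.14, edgeR adjusted p = 0.00427) over 12 libraries and -1.16 (standard error 0.083, edgeR adjusted p = 4.58e-10) over 11. With TGFβ, ascending fibroblasts thus had the higher level of the ligand and the lower level of the receptor.

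*Olfml2a*, which encodes a secreted protein with an olfactomedin domain, had the largest interaction of the 28 opened genes over 12 libraries. It went from 4.52, 4.12 and 3.59 to 0.153, 0.380 and 0.189 normalized CPM in descending fibroblasts, the treated values resting on very few reads near the floor. In ascending fibroblasts it was at 5.13, 6.80 and 5.94 in control and 2.40, 2.93 and 4.92 with TGFβ. The interaction was 3.27 (standard error 0.50, edgeR adjusted p = 0.0182) over 12 libraries and 3.36 (standard error 0.45, edgeR adjusted p = 6.88e-06) over 11. *Sfrp4*, another secreted Wnt antagonist, fell from 23.4, 28.1 and 47.1 to 2.04, 3.36 and 2.79 in descending and from 23.0, 22.6 and 21.0 to 11.2, 8.85 and 11.7 in ascending fibroblasts. In both genes the treated descending libraries lay below all treated ascending ones. The interaction of *Sfrp4* was 2.52 (standard error 0.37, edgeR adjusted p = 0.0155) over 12 libraries and 2.16 (standard error 0.19, edgeR adjusted p = 1.32e-08) over 11.

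In the opposite direction, *Ptprb*, a receptor phosphatase best known from endothelium, rose far more in descending fibroblasts. It went from 16.7, 18.3 and 16.1 to 176, 192 and 183 normalized CPM there and from 16.3, 16.6 and 17.5 to 69.6, 63.1 and 61.8 in ascending fibroblasts, from control levels that overlapped. The interaction of *Ptprb* was -1.48 (standard error 0.12, edgeR adjusted p = 0.000765) over 12 libraries and -1.45 (standard error 0.095, edgeR adjusted p = 1.02e-10) over 11. The endothelial markers summed to 1.53 to 1.90 normalized CPM in descending TGFβ and to 0.682 to 1.10 in ascending TGFβ. The part of endothelial cells in the *Ptprb* result was not tested. *Adgrd1*, an adhesion G protein-coupled receptor, was at 7.16, 8.42 and 6.42 in descending and 6.78, 7.30 and 8.67 in ascending control. It rose to 13.2, 14.0 and 13.1 in descending and fell to 3.29, 3.83 and 2.97 in ascending fibroblasts, with an interaction of -2.04 (standard error 0.23, edgeR adjusted p = 0.00411) over 12 libraries and -1.96 (standard error 0.19, edgeR adjusted p = 8.32e-08) over 11. *Slit3*, a secreted guidance cue, was at 231, 246 and 162 in control and 206, 248 and 218 with TGFβ in descending fibroblasts but fell from 196, 237 and 199 to 78.6, 74.5 and 70.3 in ascending fibroblasts, with an interaction of -1.57 (standard error 0.21, edgeR adjusted p = 0.0103) over 12 libraries and -1.41 (standard error 0.099, edgeR adjusted p = 2.76e-10) over 11. For *Adgrd1* and *Slit3* the control groups overlapped and the treated groups did not. *Fgf18*, a fibroblast growth factor, rose from 18.2, 17.9 and 24.4 to 51.6, 47.1 and 51.4 in descending fibroblasts and was at 16.2, 18.8 and 15.9 in control and 20.2, 19.2 and 20.4 with TGFβ in ascending fibroblasts, with an interaction of -1.08 over 12 libraries (edgeR adjusted p = 0.0253).

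Promoters of the leading closed and opened genes are shown so that the letters before their starts can be read beside the levels. Of the 8 genes named for these 2 classes, 5 matched a promoter of the RefSeq table (GRCm38.p6), and all 5 are shown. The 250 bases before the start are given 5′ to 3′ on the gene's strand, in lower case with motif matches in capitals. The regions are chr3:132085042-132085291 for *Dkk2*, chrX:166238693-166238942 for *Gpm6b*, chr6:117168285-117168534 for *Cxcl12* and chr2:38931730-38931979 for *Olfml2a*, all on the plus strand, and chr1:164458356-164458605 for *Atp1b1* on the minus strand. The gap closed in *Dkk2*, *Gpm6b* and *Atp1b1* and opened in *Cxcl12* and *Olfml2a*.
Dkk2: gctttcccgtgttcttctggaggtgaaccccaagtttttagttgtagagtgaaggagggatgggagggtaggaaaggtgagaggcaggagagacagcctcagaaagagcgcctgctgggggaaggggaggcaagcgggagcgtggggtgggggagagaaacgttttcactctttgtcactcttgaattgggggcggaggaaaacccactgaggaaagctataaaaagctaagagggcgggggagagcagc
Gpm6b: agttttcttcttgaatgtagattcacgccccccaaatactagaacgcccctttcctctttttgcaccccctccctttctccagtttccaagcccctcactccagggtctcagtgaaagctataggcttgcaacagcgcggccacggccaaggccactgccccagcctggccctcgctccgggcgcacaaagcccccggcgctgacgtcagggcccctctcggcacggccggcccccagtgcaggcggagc
Atp1b1: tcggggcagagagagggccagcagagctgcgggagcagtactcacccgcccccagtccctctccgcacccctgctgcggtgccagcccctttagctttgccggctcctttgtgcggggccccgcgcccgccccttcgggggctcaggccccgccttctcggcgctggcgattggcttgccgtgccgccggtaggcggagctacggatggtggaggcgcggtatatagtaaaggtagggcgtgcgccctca
Cxcl12: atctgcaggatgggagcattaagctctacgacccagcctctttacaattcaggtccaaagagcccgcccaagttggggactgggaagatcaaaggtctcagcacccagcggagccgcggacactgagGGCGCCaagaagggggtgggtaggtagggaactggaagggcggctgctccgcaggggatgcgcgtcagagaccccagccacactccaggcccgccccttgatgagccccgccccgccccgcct
Olfml2a: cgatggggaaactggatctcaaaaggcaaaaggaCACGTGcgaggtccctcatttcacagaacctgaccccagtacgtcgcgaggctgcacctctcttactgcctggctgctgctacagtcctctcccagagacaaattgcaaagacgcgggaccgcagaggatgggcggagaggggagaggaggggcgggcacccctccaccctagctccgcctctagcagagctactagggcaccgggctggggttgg
The motifs searched on either strand were TGANTCA (AP-1), GTCTAGAC and CAGACA (SMAD), GGCGCC (GC-rich SMAD element) and CACGTG (E-box). None of them contains another. *Dkk2*, *Gpm6b* and *Atp1b1* had no match to these letters, *Cxcl12* had the GC-rich element 123 to 118 bases before its start, and *Olfml2a* had an E-box 216 to 211 bases before its start.

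Over promoters from 250 bases before to 50 after the start, the shares with a match were as follows in genes that passed and in all genes tested. The GC-rich element was in 23.0% of 907 promoters of positive genes, 20.7% of 1128 promoters of negative genes (both from the 2022) and 20.5% of 13861 promoters of all genes tested. CAGACA was in 15.3%, 17.3% and 16.2%, and TGANTCA in 6.28%, 6.47% and 5.45%. CACGTG was in 7.50%, 9.13% and 9.54%, and GTCTAGAC in 0.331%, 0.177% and 0.245%. Over all 32851 promoters of the table, these letters were in 11.9% (GC-rich), 21.0% (CAGACA), 7.81% (AP-1), 7.15% (E-box) and 0.213% (GTCTAGAC). A match describes letters and not a bound site.

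In some genes TGFβ left a large site gap in place. *Gdf6*, a BMP family ligand, went from 3.31, 2.60 and 2.14 to 24.2, 25.8 and 31.1 normalized CPM in descending and from 116, 118 and 128 to 333, 363 and 347 in ascending fibroblasts, a gap of 5.34 in control and 3.68 with TGFβ over 11 libraries. *Daam2*, a formin of the Wnt pathway, fell at both sites and farther in descending fibroblasts, where its levels went from 57.1, 59.5 and 72.4 to 4.03, 3.85 and 3.31, against 3.57, 4.40 and 3.56 to 1.31, 1.09 and 1.36 in ascending fibroblasts. With TGFβ the sites did not overlap in either gene. *Lrrc17*, a secreted leucine-rich repeat protein, rose from 1.61, 1.45 and 2.05 to 9.30, 9.46 and 12.1 in ascending fibroblasts while descending fibroblasts were at 32.7, 28.1 and 14.8 in control and 33.3, 39.6 and 34.7 with TGFβ. The interaction of *Lrrc17* was 2.09 (standard error 0.38, edgeR adjusted p = 0.0335) over 12 libraries and 2.36 (standard error 0.19, edgeR adjusted p = 3.24e-09) over 11, and 2.92% of its exon sequences are shared. *Isl1*, a transcription factor of the second heart field, was at 8.09, 6.15 and 6.24 in ascending control and 4.44, 3.60 and 3.95 with TGFβ. In descending fibroblasts its controls were at or under the floor (0, 0.0434 and 0) and its treated libraries at 0.357, 0.108 and 0.236, so no fold change is given for them.

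Gaps widened in *Aldh1a2*, *Clic5*, *Dock9* and *Ppm1l*. *Aldh1a2*, which makes retinoic acid, fell from 10.9, 10.5 and 8.49 to 4.54, 3.63 and 3.64 normalized CPM in descending fibroblasts and was at 28.9, 28.9 and 27.6 in control and 27.8, 22.6 and 24.9 with TGFβ in ascending fibroblasts. Its interaction was 1.16 (standard error 0.20, edgeR adjusted p = 0.0253) over 12 libraries and 1.25 (standard error 0.15, edgeR adjusted p = 1.16e-06) over 11. *Dock9*, an exchange factor for CDC42, rose from 31.6, 38.5 and 46.6 to 81.8, 103 and 89.2 in descending fibroblasts and was at 11.9, 11.2 and 13.8 in control and 12.9, 13.2 and 12.6 with TGFβ in ascending fibroblasts, with an interaction of -1.17 over 12 libraries (edgeR adjusted p = 0.0316). The sites did not overlap in either treatment in *Aldh1a2* or *Dock9*. *Bmp3*, a BMP family member, was the gene of the 118 whose gap turned. It fell from 8.70, 10.5 and 8.72 to 0.209, 0.284 and 0.585 in ascending and from 3.78, 5.90 and 3.59 to 1.12, 2.06 and 1.89 in descending fibroblasts, an interaction of -3.28 (standard error 0.52, edgeR adjusted p = 0.0182) over 12 libraries and -3.16 (standard error 0.42, edgeR adjusted p = 6.88e-06) over 11. Its gap in control was 1.07 over 12 libraries and 0.95 over 11, so that over 11 libraries the gap counts as opened.

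A log2 interaction compares folds, and the difference in normalized CPM can point the other way when the levels differ. This was so in 6 of the 118 genes (5.08%) and in 90 of the 2022 (4.45%). The 6 were *Gdf6*, *Clic5*, *Map2*, *Prelp*, *Sertad4* and *Lrrc17*. *Gdf6* rose by a larger fold in descending fibroblasts, but the gain in ascending fibroblasts exceeded theirs by 203 normalized CPM over 12 libraries. *Clic5*, an intracellular chloride channel protein, fell from 89.2, 94.98 and 102 to 8.73, 11.1 and 11.5 in descending and from 33.0, 41.9 and 31.9 to 1.57, 1.23 and 1.61 in ascending fibroblasts. It therefore had a negative interaction on the log2 scale, -1.40 (standard error 0.22, edgeR adjusted p = 0.0182) over 12 libraries, and a difference of 51.0 normalized CPM in the positive direction. In *Lrrc17* the linear difference was -2.08 over 12 and 3.14 over 11 libraries, so that its sign turned with the odd library.

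Changes in opposite directions, each passing on its own, were found in 10 of the 118 genes and 150 of the 2022. Of the 10, 8 fell in ascending and rose in descending fibroblasts. These were *Dlc1*, *Adgrd1*, *Pkia*, *Cmklr1*, *Ppm1l*, *Atp1b1*, *Sh2d4a* and *Dmpk*, and the others, *Dpep1* and *Maged2*, did the reverse. *Dlc1*, a GTPase-activating protein, went from 165, 164 and 161 to 107, 115 and 109.7 normalized CPM in ascending and from 117, 127 and 120.2 to 188, 198 and 199 in descending fibroblasts, with no overlap between treatments at either site. *Cmklr1*, the chemerin receptor, went from 23.1, 29.7 and 24.2 to 14.1, 11.9 and 15.3 in ascending and from 13.2, 13.8 and 11.7 to 17.4, 21.7 and 19.2 in descending fibroblasts. *Dpep1*, a membrane dipeptidase, rose from 3.87, 4.65 and 3.75 to 9.87, 9.51 and 10.3 in ascending and fell from 26.1, 22.7 and 17.2 to 10.7, 13.5 and 11.3 in descending fibroblasts, so that the treated groups came close to each other.

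The gene groups below were described by counts beside the background shares given above, 6.07% positive and 7.40% negative over 11 libraries. Only members with enough counts were tested, for example 31 of 40 collagen chains, 35 of 43 Wnt genes and 19 of 32 chemokine and cytokine genes. Of 36 cell cycle genes tested, 22 passed with a positive and 5 with a negative interaction over 11 libraries, and 0 passed edgeR's test over 12. Over 12 libraries 19 had an unadjusted p under 0.05, DESeq2 called 13 positive and 1 negative, and weighted voom called 21 and 6. The median interaction of the list was 0.46 in both fits. The positive genes were cyclins, mitotic kinases, replication licensing factors and proliferation markers, most of which fell in descending fibroblasts and fell less, or did not pass, in ascending fibroblasts. *Mki67*, the proliferation marker, was at 39.9, 47.7 and 109 normalized CPM in descending control, with the odd library high, and 16.5, 16.7 and 20.9 with TGFβ. In ascending fibroblasts it was at 41.2, 42.6 and 41.8 in control and 39.5, 33.4 and 36.1 with TGFβ, so that the treated descending group lay below the other groups. The interaction of *Mki67* was 1.66 (edgeR adjusted p = 0.147) over 12 libraries and 1.06 (standard error 0.12, edgeR adjusted p = 7.36e-07) over 11.

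*Top2a*, the topoisomerase of dividing cells, was at 68.9, 78.4 and 137 in descending control and 33.1, 30.3 and 38.0 with TGFβ, and at 70.8, 69.4 and 69.6 in control and 69.7, 59.6 and 66.2 with TGFβ in ascending fibroblasts, with an interaction of 1.01 (standard error 0.10, edgeR adjusted p = 1.16e-07) over 11 libraries. *Bub1*, a kinase of the spindle checkpoint, went from 11.3, 14.1 and 6.69 to 5.67, 5.21 and 6.57 in descending fibroblasts and was at 13.1, 13.6 and 12.6 in control and 15.7, 11.5 and 12.6 with TGFβ in ascending fibroblasts (interaction 1.12, standard error 0.18, edgeR adjusted p = 7.56e-05 over 11 libraries). The odd library was above its group in *Mki67* and *Top2a* and below it in *Bub1*. Of the 5 negative genes, 4 encode inhibitors of cyclin-dependent kinases (*Cdkn1a*, *Cdkn1c*, *Cdkn2a* and *Cdkn2b*) and the fifth is *Cdk6*. *Cdkn1a*, which encodes p21, rose from 591, 560.2 and 552 to 804, 811 and 757 in descending fibroblasts and was at 417, 425 and 399 in control and 432, 413 and 432 with TGFβ in ascending fibroblasts. Its interaction was -0.44 (edgeR adjusted p = 0.0692) over 12 libraries and -0.42 (standard error 0.056, edgeR adjusted p = 6.78e-06) over 11, and 8.49% of its exon sequences are shared. *Cdkn2b*, which encodes p15, rose at both sites, from 93.4, 87.2 and 37.3 to 174, 179.7 and 168 in descending and from 59.1, 56.3 and 57.6 to 90.0, 86.7 and 90.8 in ascending fibroblasts. D-type cyclins (*Ccnd1*, *Ccnd2* and *Ccnd3*) did not pass. With each further library left out, 23 of the 27 genes kept passing, while *Aurka* did not pass without descending control replicate 2, *Cdk6* and *Mcm2* did not without any 1 of 5 libraries and *Ccne2* without any 1 of 10.

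**Figure D5:**
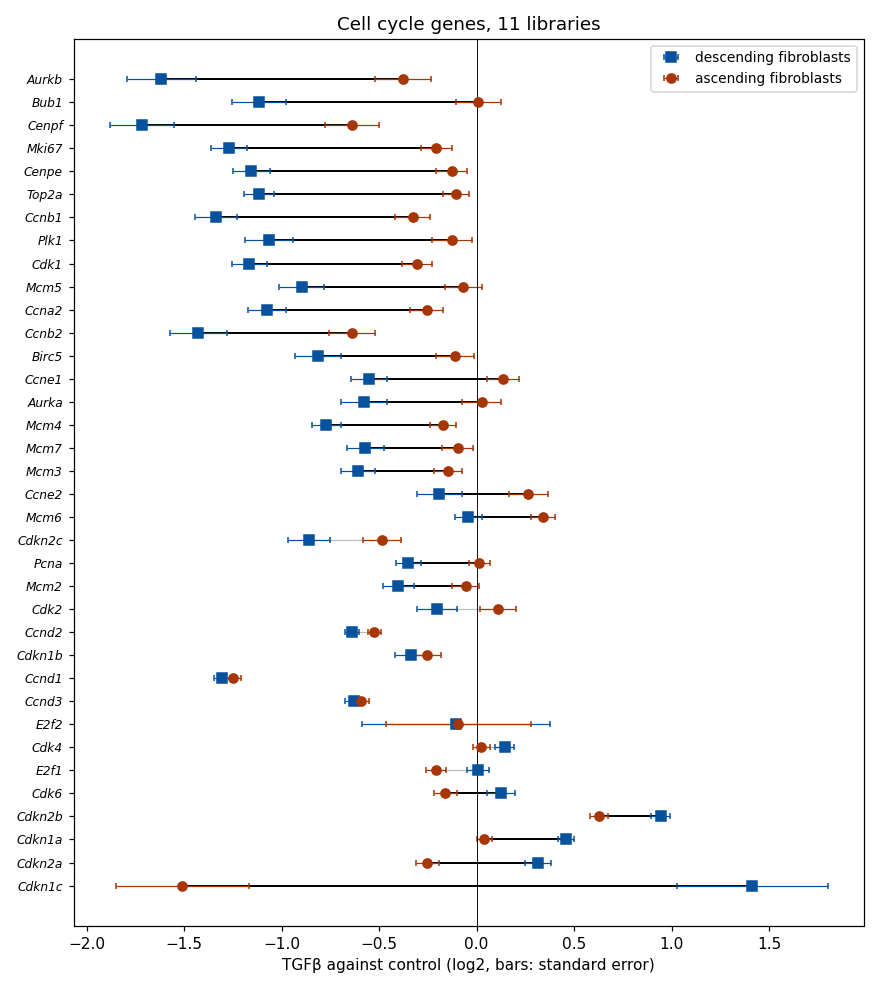
Log2 change with TGFβ in descending (blue squares) and ascending (brown circles) fibroblasts of the 36 cell cycle genes tested, from the fit of 11 libraries, ordered by interaction, with bars of 1 standard error. Black connecting lines mark the 27 genes whose interaction passed. Most genes lie farther left in descending fibroblasts, while the kinase inhibitors at the bottom lie farther right.

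Fibroblast matrix genes moved in both directions. Of 31 collagen chains tested, 3 passed with a positive and 12 with a negative interaction over 11 libraries, and 2 and 2 over 12. The median change with TGFβ was 0.077 in ascending and 0.37 in descending fibroblasts. The fibrillar genes *Col1a1*, *Col1a2*, *Col3a1*, *Col5a1* and *Col5a2* and all 6 type IV chains were among the negative genes, and *Col6a1*, *Col6a2* and *Col28a1* were the positive ones. Of the type IV chains, *Col4a3* and *Col4a6* each did not pass without any 1 of 3 further libraries, descending controls 1 and 2 among them. *Col5a2*, a chain of the fibril core, went from 1936, 1873 and 2110.2 to 5704, 5854 and 5853 normalized CPM in descending and from 3462, 3240.2 and 3349.7 to 6687, 6845 and 6949.8 in ascending fibroblasts. It passed in both fits, at -0.53 (standard error 0.097, edgeR adjusted p = 0.0339) and -0.58 (standard error 0.045, edgeR adjusted p = 1.45e-09). *Col3a1*, the chain of reticular fibrils, was at 4739.6, 5144 and 4744 in ascending control and 2563, 2380.2 and 2413 with TGFβ, against 1972, 1974 and 1257 and 1679.5, 1672 and 1582 in descending fibroblasts, which closed a gap by a fall in ascending fibroblasts (interaction -0.73, standard error 0.055, edgeR adjusted p = 8.55e-10 over 11 libraries, edgeR adjusted p = 0.0857 over 12). *Col6a2*, a chain of microfibrillar collagen, fell at both sites, from 642, 588 and 736 to 197, 205 and 186 in descending and from 235, 264 and 247 to 122, 116 and 115 in ascending fibroblasts, with an interaction of 0.67 (standard error 0.13, edgeR adjusted p = 0.0491) over 12 libraries.

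Of 24 proteoglycan genes, 7 passed positive and 2 negative over 11 libraries, and 1 and 0 over 12. Small leucine-rich proteoglycans, which bind collagen fibrils, were 5 of the positive genes (*Dcn*, *Ogn*, *Aspn*, *Prelp* and *Omd*) and 1 of the negative genes (*Podn*). *Dcn*, decorin, did not pass without any 1 of 6 further libraries. *Podn*, podocan, rose from 15.5, 15.4 and 16.7 to 23.7, 26.4 and 22.8 normalized CPM in descending fibroblasts and went from 12.6, 19.2 and 12.7 to 12.9, 11.4 and 10.8 in ascending fibroblasts, where the treatments overlapped (interaction -0.999, standard error 0.18, edgeR adjusted p = 0.000253 over 11 libraries). Among the positive genes *Ogn*, *Omd* and *Aspn* lie side by side on chromosome 13, with *Ogn* from 49608046 to 49624501. *Ogn* fell from 522, 600.1 and 1327 to 91.6, 87.2 and 86.8 normalized CPM in descending and from 343, 386 and 354 to 137, 132 and 144 in ascending fibroblasts, with an interaction of 1.81 (edgeR adjusted p = 0.0727) over 12 libraries and 1.27 (standard error 0.076, edgeR adjusted p = 2.14e-11) over 11. *Omd* fell from 33.0, 37.2 and 140.0 to 3.11, 2.71 and 2.70 in descending and from 4.04, 4.80 and 5.41 to 1.67, 1.80 and 2.24 in ascending fibroblasts (interaction 2.31, standard error 0.22, edgeR adjusted p = 6.63e-08 over 11 libraries). *Aspn* was at 122, 129 and 531 in control and 39.2, 42.5 and 38.1 with TGFβ in descending fibroblasts, and at 4.96, 10.2 and 6.53 in control and 6.37, 6.34 and 9.65 with TGFβ in ascending fibroblasts, where the treatments overlapped (interaction 1.71, standard error 0.21, edgeR adjusted p = 2.68e-06 over 11 libraries). In all 3 the odd library was the highest of its group. *Prelp* was the member that passed in both fits, falling from 569, 618 and 662 to 75.6, 93.8 and 76.0 in descending and from 807, 850.0 and 827 to 187, 175 and 195 in ascending fibroblasts (interaction 0.76, standard error 0.14, edgeR adjusted p = 0.0352 over 12 libraries and 0.70, standard error 0.084, edgeR adjusted p = 1.63e-06 over 11). *Has2*, the hyaluronan synthase, rose from 0.826, 0.4998 and 0.390 to 7.05, 6.86 and 7.60 in ascending and from 3.62, 4.64 and 2.00 to 16.3, 16.5 and 16.3 in descending fibroblasts (interaction 1.62, standard error 0.27, edgeR adjusted p = 0.000143 over 11 libraries).

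Of 18 elastic fibre genes, 2 passed positive and 5 negative over 11 libraries, and *Eln* alone passed over 12. Of the lysyl oxidase family *Loxl3* was positive (interaction 0.57, standard error 0.058, edgeR adjusted p = 1.33e-07 over 11 libraries), and *Loxl2* (interaction -0.42, standard error 0.053, edgeR adjusted p = 3.09e-06 over 11 libraries) and *Loxl4* (interaction -0.28, standard error 0.07, edgeR adjusted p = 0.00841 over 11 libraries) were negative, with 45.0% of the exon sequences of *Loxl2* shared. The microfibril and fibulin members *Mfap5* and *Fbln1* passed over 11 libraries but not without any 1 of 8 and 6 further libraries. *Efemp1*, another fibulin, passed over 11 libraries (interaction -0.27, edgeR adjusted p = 0.000909) and kept passing with each further library left out in turn. Of 31 matrix proteases and inhibitors, 6 passed positive and 10 negative over 11 libraries. Over 12 libraries 0 and 1 passed edgeR's test, 8 had an unadjusted p under 0.05, DESeq2 called 1 positive and 4 negative and weighted voom 6 and 9. Of these 16 genes, 11 kept passing with each further library left out in turn, and the negative calls were 6 without descending control replicate 2 or ascending TGFβ replicate 3. *Plau*, the urokinase-type plasminogen activator, fell from 58.1, 54.7 and 36.8 to 5.31, 5.15 and 6.34 normalized CPM in descending and from 21.2, 24.5 and 21.9 to 6.11, 4.73 and 4.73 in ascending fibroblasts (interaction 1.20, standard error 0.15, edgeR adjusted p = 3.5e-06 over 11 libraries). *Mmp2*, gelatinase A, was at 565, 582 and 325 in control and 449, 473 and 439 with TGFβ in descending fibroblasts and rose from 789.6, 817 and 775 to 1039, 991 and 1002 in ascending fibroblasts (interaction 0.68, standard error 0.053, edgeR adjusted p = 1.72e-09 over 11 libraries).

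All 3 TGFβ ligands had a negative interaction over 11 libraries, and their binding proteins were found on both sides. Of 18 genes for ligands, receptors and latency, 7 passed positive and 5 negative over 11 libraries, and 0 and 1 over 12. *Tgfb1* rose from 23.0, 21.3 and 22.1 to 86.4, 97.7 and 81.1 normalized CPM in descending and from 18.1, 22.9 and 18.2 to 53.0, 52.5 and 51.4 in ascending fibroblasts (interaction -0.59, standard error 0.12, edgeR adjusted p = 0.000996 over 11 libraries). *Tgfb2* went from 61.4, 68.2 and 153 to 163, 164 and 149 in descending fibroblasts, where the odd control lay at the treated level, and from 93.8, 95.2 and 97.7 to 133, 132 and 141 in ascending fibroblasts. Its interaction was -0.25 (edgeR adjusted p = 0.773) over 12 libraries and -0.79 (standard error 0.073, edgeR adjusted p = 2.58e-08) over 11. Without that library the descending controls lay below every treated descending library. *Tgfb3* rose from 136, 131 and 113 to 251, 263 and 245 in descending fibroblasts alone, being at 105, 106 and 107 in control and 105, 97.9 and 97.5 with TGFβ in ascending fibroblasts, and passed in both fits (-1.08 and -1.01). Of the latent TGFβ-binding proteins, *Ltbp4* had a negative interaction and *Ltbp2* and *Ltbp3* a positive one. *Ltbp4* rose from 135, 133 and 68.1 to 241, 268 and 257 in descending and from 249.6, 259 and 249.8 to 344, 332 and 342 in ascending fibroblasts (interaction -0.51, standard error 0.059, edgeR adjusted p = 8.66e-07 over 11 libraries). Among positive genes, *Ltbp2*, which binds to microfibrils, rose from 219, 220.3 and 219 to 1642, 1777 and 1758 in ascending and from 698, 719 and 334 to 2832, 3097 and 3043 in descending fibroblasts (interaction 0.89, standard error 0.055, edgeR adjusted p = 3.39e-11 over 11 libraries, 8.58% of its exon sequences shared). *Lrrc32*, the GARP protein that anchors latent TGFβ, was at 464, 460.2 and 219.7 in control and 372, 341 and 402 with TGFβ in descending fibroblasts and rose from 250, 247 and 240.5 to 325, 351 and 357 in ascending fibroblasts (interaction 0.80, standard error 0.07, edgeR adjusted p = 1.41e-08 over 11 libraries). *Itgb8*, an integrin chain that activates latent TGFβ, fell at both sites and farther in descending fibroblasts (interaction 1.10, standard error 0.25, edgeR adjusted p = 0.00393 over 11 libraries).

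Of 21 SMAD and feedback genes, 1 passed positive (*Smad3*) and 2 negative (*Nedd4l* and *Ctdspl*) over 11 libraries. Over 12 libraries 0 passed edgeR's test, 2 had an unadjusted p under 0.05, DESeq2 called 0 and weighted voom 1 positive and 2 negative. *Smad3*, a TGFβ signal transducer, fell from 92.8, 97.3 and 68.7 to 35.4, 36.8 and 36.7 normalized CPM in descending and from 113, 103 and 110.4 to 59.2, 63.1 and 63.0 in ascending fibroblasts, with an interaction of 0.57 (standard error 0.073, edgeR adjusted p = 4.18e-06) over 11 libraries. The share of this list that passed, 14.3%, was near the 13.5% of all genes tested, and without ascending control replicate 3 as well 2 passed positive and 3 negative. The positive calls were also 2 without descending TGFβ replicate 2 or 3 or ascending control replicate 1. Of 33 BMP and GDF genes, 4 passed positive and 6 negative over 11 libraries, and 1 and 3 over 12. The BMP antagonist *Grem1* fell from 434, 517 and 748 to 161, 174 and 152 in descending fibroblasts. It went from 81.0, 118 and 105 to 75.9, 73.1 and 85.5 in ascending fibroblasts, where the treatments overlapped (interaction 1.43, standard error 0.27, edgeR adjusted p = 0.0433 over 12 libraries and 1.18, standard error 0.13, edgeR adjusted p = 4.53e-07 over 11). *Bmper*, a modulator of BMP signalling, rose from 3.66, 4.56 and 5.52 to 15.8, 14.2 and 13.7 in descending and from 25.4, 24.8 and 24.5 to 33.3, 32.6 and 37.2 in ascending fibroblasts (interaction -1.21, standard error 0.20, edgeR adjusted p = 0.0211 over 12 libraries).

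Wnt genes held 5 of the 118. Of 35 tested, 9 passed positive and 7 negative over 11 libraries, and 4 and 1 over 12. The secreted antagonists that passed over 11 libraries, *Dkk2*, *Dkk3*, *Frzb*, *Sfrp1* and *Sfrp4*, were all positive, and *Dkk3* did not pass without any 1 of 4 further libraries. *Frzb* fell from 32.8, 31.8 and 17.5 to 9.24, 8.08 and 8.99 normalized CPM in descending fibroblasts and was at 11.2, 14.3 and 16.7 in control and 16.5, 14.4 and 14.6 with TGFβ in ascending fibroblasts (interaction 1.75, standard error 0.33, edgeR adjusted p = 0.0369 over 12 libraries and 1.99, standard error 0.16, edgeR adjusted p = 3.03e-09 over 11). *Sfrp1* fell from 530.4, 541 and 887 to 154, 163 and 140.1 in descending and from 326, 334 and 350.2 to 142, 136 and 152 in ascending fibroblasts (interaction 0.58, standard error 0.071, edgeR adjusted p = 2.16e-06 over 11 libraries). In both genes the treated descending libraries lay below every descending control. Among ligands, *Wnt5a* rose at both sites, from 39.4, 43.8 and 12.6 to 213, 223 and 224 in descending and from 49.7, 48.8 and 45.4 to 189, 175 and 183 in ascending fibroblasts (interaction -0.48, standard error 0.074, edgeR adjusted p = 4.12e-05 over 11 libraries). *Ror1*, a receptor of *Wnt5a*, went from 5.10, 6.99 and 5.80 to 18.7, 23.0 and 19.2 and from 12.5, 13.3 and 11.9 to 18.2, 18.8 and 20.7 in the same order and passed in both fits (interaction -1.15, standard error 0.20, edgeR adjusted p = 0.0284 over 12 libraries and -1.14, standard error 0.16, edgeR adjusted p = 1.74e-05 over 11). With TGFβ the sites overlapped in *Ror1*. *Wnt11* was the ligand with the opposite sign, falling from 14.3, 12.6 and 4.07 to 4.65, 3.90 and 4.16 in descending and from 8.57, 9.20 and 9.79 to 6.37, 5.02 and 5.31 in ascending fibroblasts (interaction 0.94, standard error 0.19, edgeR adjusted p = 0.000939 over 11 libraries).

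Of 28 angiogenic genes, 6 passed positive and 6 negative over 11 libraries, and 2 and 3 over 12. The angiopoietin system moved on both sides. *Angpt2*, the context-dependent ligand, fell from 67.5, 77.9 and 94.3 to 1.99, 1.19 and 1.75 normalized CPM in descending and from 19.8, 28.8 and 22.9 to 1.62, 1.75 and 1.80 in ascending fibroblasts (interaction 1.81, standard error 0.30, edgeR adjusted p = 0.02 over 12 libraries and 1.67, standard error 0.29, edgeR adjusted p = 0.000167 over 11). Its receptor *Tek* fell farther in ascending fibroblasts, from 23.6, 25.7 and 23.7 to 3.60, 4.73 and 4.04, against 23.8, 24.9 and 23.9 to 7.71, 9.27 and 8.70 in descending fibroblasts (interaction -1.06, standard error 0.18, edgeR adjusted p = 0.0228 over 12 libraries and -1.05, standard error 0.15, edgeR adjusted p = 1.72e-05 over 11). The treated sites overlapped in *Angpt2* and not in *Tek*. *Ptprb*, whose product dephosphorylates that receptor, rose farther in descending fibroblasts, as given above. *Vegfc*, the lymphangiogenic ligand, rose from 8.14, 7.90 and 5.17 to 16.9, 17.4 and 17.5 in descending fibroblasts and was at 25.5, 25.6 and 27.9 in control and 22.4, 21.8 and 24.6 with TGFβ in ascending fibroblasts (interaction -1.48, standard error 0.22, edgeR adjusted p = 0.0155 over 12 libraries). *Nrp1*, a co-receptor for VEGF and semaphorins, fell from 108, 118 and 112 to 47.6, 48.2 and 52.3 and from 93.0, 96.5 and 90.9 to 67.0, 69.7 and 71.4 in the same order (interaction 0.76, standard error 0.11, edgeR adjusted p = 0.0111 over 12 libraries). *Flt1*, a VEGF receptor, fell in ascending fibroblasts from 20.1, 19.9 and 21.9 to 10.1, 11.03 and 9.99 and was at 14.1, 15.3 and 26.2 in control and 22.9, 25.4 and 24.3 with TGFβ in descending fibroblasts, where only the odd control reached the treated level (interaction -1.71, standard error 0.12, edgeR adjusted p = 2.76e-10 over 11 libraries).

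Of 27 genes of the contractile apparatus, 5 passed positive and 12 negative over 11 libraries, with a median interaction of -0.21, against -0.052 over 12. Of these 17 genes, 10 kept passing with each further library left out in turn, and without descending control replicate 2 the counts were 2 and 9, with *Cnn2*, *Cnn3*, *Flna*, *Nox4*, *Tagln* and *Tpm2* no longer passing. Without descending control replicate 1, 3 passed positive. *Tagln* did not pass without any 1 of 8 libraries. Over 12 libraries 0 passed edgeR's test, 8 had an unadjusted p under 0.05, DESeq2 called 2 negative and weighted voom 4 positive and 12 negative. *Myh11*, the smooth muscle myosin heavy chain, was at 43.6, 44.5 and 83.8 normalized CPM in descending control and 67.3, 81.2 and 75.6 with TGFβ. It fell from 23.4, 25.5 and 23.2 to 17.7, 16.8 and 12.5 in ascending fibroblasts (interaction -1.39, standard error 0.13, edgeR adjusted p = 3.8e-08 over 11 libraries). *Synpo2*, an actin-binding protein of smooth muscle, rose from 11.6, 15.8 and 20.5 to 76.3, 79.8 and 81.9 in descending and from 10.8, 11.1 and 14.6 to 33.2, 32.5 and 33.6 in ascending fibroblasts (interaction -1.10, standard error 0.14, edgeR adjusted p = 4.45e-06 over 11 libraries). The odd library was the highest descending control of both genes. *Cnn1*, calponin, was among the positive genes, rising from 11.9, 10.7 and 11.1 to 45.3, 42.5 and 42.1 in ascending and from 35.3, 32.8 and 11.2 to 100.3, 98.6 and 105 in descending fibroblasts (interaction 0.37, standard error 0.091, edgeR adjusted p = 0.00716 over 11 libraries), but it did not pass without descending control replicate 1 as well. The 5 smooth muscle markers, which overlap this list, summed to 209 to 257 in descending control, 354 to 375 in descending TGFβ, 155 to 164 in ascending control and 201 to 215 in ascending TGFβ. Their part in the contractile result was not tested.

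Of 25 genes of cholesterol synthesis, 11 passed positive and 0 negative over 11 libraries, with a median interaction of 0.22, and 1 passed over 12, where the median was 0.027. The gene that passed in both fits was *Hsd17b7*, which acts in the late steps of the pathway. It fell from 191, 197 and 177 to 74.9, 85.1 and 81.6 normalized CPM in descending and from 70.8, 70.0 and 70.8 to 55.5, 54.7 and 59.1 in ascending fibroblasts (interaction 0.90, standard error 0.11, edgeR adjusted p = 0.00548 over 12 libraries and 0.94, standard error 0.071, edgeR adjusted p = 1.04e-09 over 11). *Hmgcs1*, an early enzyme, fell from 157, 153 and 258 to 90.7, 83.1 and 90.7 in descending and from 84.7, 95.3 and 89.9 to 71.9, 72.1 and 69.5 in ascending fibroblasts (interaction 0.47, standard error 0.072, edgeR adjusted p = 3.88e-05 over 11 libraries). *Lss* did not pass without descending control replicate 1, *Cyp51* without descending control replicate 2 and *Sqle* without any 1 of 9 libraries.

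Of 22 genes of serine, glycine and proline synthesis and amino acid stress, 0 passed positive and 8 negative over 11 libraries. Over 12 libraries 0 passed edgeR's test, 4 had an unadjusted p under 0.05, DESeq2 called 3 negative and weighted voom 8 negative. *Atf4*, the transcription factor of this programme, rose from 156, 149.7 and 115 to 267, 269 and 256 normalized CPM in descending and from 147, 152 and 150.2 to 209, 209 and 199 in ascending fibroblasts (interaction -0.33, standard error 0.057, edgeR adjusted p = 0.000165 over 11 libraries). *Trib3*, a target of it, rose from 12.4 and 11.8 in descending controls 1 and 2 to 40.7, 52.0 and 41.9, and from 13.5, 16.7 and 17.0 to 33.2, 30.0 and 27.8 in ascending fibroblasts (interaction -0.94, standard error 0.15, edgeR adjusted p = 6.19e-05 over 11 libraries). The odd library held 0 reads of *Trib3* and of *Chac1*, another member, which was at 6.70 and 6.60 in the other descending controls. *Psat1*, an enzyme of serine synthesis, rose from 103, 103 and 85.8 to 155, 153 and 154 and from 84.4, 82.1 and 81.6 to 105, 97.1 and 101 in the same order (interaction -0.30, standard error 0.061, edgeR adjusted p = 0.00127 over 11 libraries).

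Of 19 chemokine and cytokine genes, 5 passed positive and 2 negative over 11 libraries. Over 12 libraries 1 passed positive and 0 negative, 6 had an unadjusted p under 0.05, DESeq2 called 3 and 0 and weighted voom 4 and 2. Of the 7, 3 kept passing with each further library left out in turn, and without ascending TGFβ replicate 3 the counts were 2 and 2, with *Il34*, *Csf1* and *Tnfsf11* no longer passing. Without ascending TGFβ replicate 2, 3 passed positive. *Il11*, a fibroblast cytokine induced by TGFβ, rose from 1.48 and 1.65 normalized CPM in descending controls 1 and 2 to 22.4, 20.3 and 19.7, and from 1.91, 1.70 and 1.61 to 8.36, 9.70 and 9.01 in ascending fibroblasts (interaction -1.37, standard error 0.23, edgeR adjusted p = 0.000109 over 11 libraries). The odd library held 0 reads of *Il11*, and over 12 libraries the interaction was -1.86 (standard error 0.81, edgeR adjusted p = 0.482). *Tnfrsf11b*, the decoy receptor osteoprotegerin, rose from 18.2, 21.1 and 1.52 to 216, 226 and 209 in descending and from 50.9, 50.4 and 52.5 to 301, 284 and 294 in ascending fibroblasts (interaction -0.96, standard error 0.077, edgeR adjusted p = 3.24e-09 over 11 libraries). With TGFβ, *Il11* was higher in descending and *Tnfrsf11b* in ascending fibroblasts, without overlap. The ligand of osteoprotegerin, *Tnfsf11*, was at 10.9, 8.94 and 4.28 in descending control and 0.306, 0.434 and 0.284 with TGFβ, while ascending controls were at or under the floor. *Il1rn*, the interleukin-1 receptor antagonist, was at 13.5, 12.5 and 25.3 in descending control and at most 0.600 in every other library. No fold change is given for the ascending side of these genes, since their levels lay at or near the floor.

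Of 46 cardiac and mesoderm transcription factors, 12 passed positive and 3 negative over 11 libraries, with a median interaction of 0.20, and of 45 tested over 12 libraries 0 and 1. Without descending control replicate 1 as well, 9 passed positive and 0 negative, and without descending control replicate 2 the negative calls were 1. *Snai2*, a repressor of epithelial genes, fell from 91.3, 95.8 and 442 to 22.1, 19.9 and 23.2 normalized CPM in descending, with the odd library several times above its group, and from 21.7, 23.8 and 24.2 to 11.5, 10.1 and 10.8 in ascending fibroblasts (interaction 1.00, standard error 0.11, edgeR adjusted p = 3.12e-07 over 11 libraries). *Runx2*, the osteoblast factor, was at 22.8, 21.6 and 39.1 in control and 14.1, 14.3 and 17.7 with TGFβ in descending and 7.91, 9.80 and 11.5 and 12.3, 11.8 and 13.1 in ascending fibroblasts (interaction 0.88, standard error 0.16, edgeR adjusted p = 0.000424 over 11 libraries, 5.66% of its exon sequences shared). *Meox1*, a homeobox gene, had 0 reads in each ascending control and 1.52, 2.70 and 2.00 normalized CPM with TGFβ, against 0.234, 0.434 and 0 and 0.664, 0.542 and 0.331 in descending fibroblasts. It passed over 11 libraries and not over 12 (edgeR adjusted p = 0.0978). No fold change is given for *Meox1*, since ascending controls held 0 reads and descending levels lay near the floor. Of 26 genes of the aryl hydrocarbon receptor and xenobiotic list, 3 passed positive and 6 negative over 11 libraries, and 3 and 1 over 12. *Ahr*, the receptor itself, fell from 12.7, 13.8 and 16.4 to 6.18, 5.80 and 5.72 in descending fibroblasts and was at 13.7, 15.2 and 14.1 in control and 13.7, 11.8 and 11.3 with TGFβ in ascending fibroblasts (interaction 1.05, standard error 0.19, edgeR adjusted p = 0.0339 over 12 libraries and 0.93, standard error 0.15, edgeR adjusted p = 8.8e-05 over 11). *Nqo1*, one of its classical targets, rose from 42.5, 38.6 and 33.8 to 79.0, 93.0 and 76.5 in descending fibroblasts and was at 27.8, 26.7 and 26.8 in control and 30.6, 30.3 and 29.7 with TGFβ in ascending fibroblasts (interaction -0.96, standard error 0.15, edgeR adjusted p = 0.0182 over 12 libraries). *Fmo2*, a monooxygenase, fell at both sites to 0.817, 0.651 and 0.615 in descending and 1.25, 0.899 and 0.633 in ascending fibroblasts, from 52.5, 62.6 and 51.6 and 16.4, 20.5 and 17.1 in control (interaction 2.04, standard error 0.31, edgeR adjusted p = 0.0182 over 12 libraries).

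The remaining lists are given by their counts over 11 libraries. Of 26 interferon-stimulated and MHC class I genes 0 passed positive and 5 negative, of 14 complement genes 4 and 1, and of 22 adventitial progenitor genes 4 and 5. Of 37 growth factor and receptor genes 8 passed positive and 12 negative, of 41 guidance genes 5 and 12, of 28 immediate early and KLF genes 3 and 6, and of 23 HOX genes 4 and 0. Nearly all of these calls were lost over 12 libraries. There edgeR's test passed 0 interferon and MHC, 0 complement and 0 HOX genes, 0 positive and 1 negative of the progenitor, growth factor and immediate early lists each, and 0 and 2 guidance genes. At an unadjusted p under 0.05 the numbers over 12 libraries were 2 interferon and MHC, 5 complement, 4 HOX, 7 progenitor, 13 growth factor, 6 immediate early and 8 guidance genes. DESeq2 called 0 positive and 1 negative interferon and MHC genes, 2 and 0 complement, 1 and 0 HOX, 2 and 1 progenitor, 3 and 5 growth factor, 1 and 4 immediate early and 0 and 2 guidance genes. Weighted voom called 0 and 3, 4 and 1, 3 and 0, 4 and 5, 6 and 8, 3 and 5 and 5 and 9 genes of the 7 lists in that order. With a library left out beside the odd one, several of the counts over 11 libraries moved by over 1.5 times. The interferon and MHC genes were the least stable, as 1 of the 5 kept passing with each further library left out in turn. Their negative calls were 1 without descending control replicate 2, 2 without descending TGFβ replicate 1 or ascending TGFβ replicate 3, and 3 without descending control replicate 1, ascending control replicate 2 or 3 or ascending TGFβ replicate 2. Without descending control replicate 1 the growth factor list had 5 positive and 6 negative calls and the HOX list 2 and 0. Without descending control replicate 2 the growth factor list had 5 and 7 and the progenitor list 3 and 2. The growth factor list had 4 and 9 without descending TGFβ replicate 2, and its positive calls were 5 without ascending control replicate 3 or ascending TGFβ replicate 3. The progenitor list had 3 negative calls without descending TGFβ replicate 1, ascending control replicate 3 or ascending TGFβ replicate 3. The complement list had 4 negative calls without ascending control replicate 1 and 2 without descending TGFβ replicate 3. Among immediate early and KLF genes 1 passed positive without descending control replicate 2. *Klf4*, a zinc-finger factor of quiescent vascular cells, fell from 327, 320.4 and 339 to 109.8, 114 and 112 normalized CPM in ascending and from 294, 282 and 248 to 153, 176 and 165 in descending fibroblasts, and passed in both fits (interaction -0.81, standard error 0.12, edgeR adjusted p = 0.0146 over 12 libraries and -0.75, standard error 0.066, edgeR adjusted p = 1.48e-08 over 11). *Igfbp2*, which binds insulin-like growth factors, rose from 115, 118 and 21.4 to 696, 695 and 717 in descending and from 184, 143 and 160.2 to 391, 355 and 293 in ascending fibroblasts (interaction -1.50, standard error 0.11, edgeR adjusted p = 1.03e-09 over 11 libraries). *Sema7a*, a membrane-anchored semaphorin, rose from 14.99, 14.8 and 14.5 to 59.6, 66.9 and 66.6 and from 31.4, 30.7 and 25.3 to 65.6, 68.7 and 71.3 in the same order, and passed in both fits (interaction -0.89, standard error 0.14, edgeR adjusted p = 0.0182 over 12 libraries and -0.88, standard error 0.11, edgeR adjusted p = 2.63e-06 over 11). The 14 mitochondrially encoded genes show what the odd library did, since their median interaction was 2.53 over 12 libraries and 0.094 over 11. Over 12 libraries 0 passed edgeR's test and 0 DESeq2's, 7 had an unadjusted p under 0.05, and weighted voom called 3 positive.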

How the data were processed

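RNA of 12 cultures of mouse adventitial fibroblasts (2 sites, 2 treatments, 3 libraries each) was sequenced in bulk. The deposited values are whole-number read counts per gene symbol, which the authors made with FastQC, STAR and featureCounts on mm10. Versions, strand setting and the handling of multiply mapped reads are not given in the sources used here. The study's text gives differing ages of the mice and differing numbers of passages in different places, and those of the labels are printed. The counts were not changed before the test, and no table column belonged to another series (0 columns).

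Counts were filtered with edgeR's filterByExpr (minimum count 10, minimum total 15), scaled by TMM and fitted with glmQLFit over the 4 groups (edgeR 4.0.16, R 4.3.3). The interaction contrast was tested by glmQLFTest with Benjamini-Hochberg adjustment over all genes tested, once with 12 and once with 11 libraries. The standard error is the absolute log2 interaction divided by the square root of F. Normalized CPM are scaled by the TMM of 12 libraries. DESeq2 1.42.0 and limma 3.58.1 (voom with a weight for each library) served as alternatives, besides DESeq2 size factors, other filters, a replicate block, counts thinned to the smallest library, mitochondrial genes left out, and single libraries left out. The interaction test of edgeR, DESeq2 and weighted voom had first been run on simulated counts. The simulation held no odd library, so it says nothing about how that library affects the fit of 12 libraries. The other contrasts and settings were not simulated. Summaries used Python 3.11.15, pandas 2.3.3 and numpy 2.4.6, and plots matplotlib 3.10.9.

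Named were the 10 positive and 10 negative genes of smallest adjusted p in both fits and over 11 libraries, the 4 of largest interaction in each class of gap, listed genes that passed, by role, and genes the study names. Other listed genes are given as values. Members and lists were chosen with earlier results of these data known, so list counts are descriptions. Positions are from GENCODE vM21 (GRCm38), which held 53753 of the symbols (98.9%), promoters from RefSeq GRCm38.p6. Shared exon sequences are 50-base windows of exons found in a further gene as well. They are printed for some genes only, and other named genes share sequence too, such as *Tagln* (58.3%), *Cdkn1c* (24.9%) and *Cnn3* (24.0%). Total counts per library were 16250126 to 23892943 reads, and floors cover counting error only. Standard errors come from the quasi-likelihood fit and hold the spread between libraries as well. The results of some genes are not reported here.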

Additional observations from a re-analysis of the deposited data

Results flagged for a closer look

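The change with TGFβ differed between the sites by the interaction test in 118 genes over 12 libraries and in 2022 over 11. In 10 of the 118, the change passed at both sites in opposite directions. The log2 interactions over 12 libraries were -1.24 in *Dlc1*, -2.04 in *Adgrd1*, -0.82 in *Pkia*, -1.50 in *Cmklr1* and -1.38 in *Ppm1l*. They were -3.09 in *Atp1b1*, -1.21 in *Sh2d4a* and -0.63 in *Dmpk*, which also fell in ascending and rose in descending fibroblasts. The reverse directions were found in *Dpep1*, at 2.17, and *Maged2*, at 0.56.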

How the results depend on the processing

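The count of 118 over 12 libraries became 494 with DESeq2, 1979 with voom weights, 56 without a filter on low counts and 67 with an absolute log2 interaction above 1 as a further rule. With each library left out in turn it ran from 25 to 2022. It stayed within 1.5 times of 118 with DESeq2 size factors (121), at least 10 counts in every library (168), thinned counts (131) and mitochondrial genes left out (116). The count of 2022 over 11 libraries became 341 with the rule on an interaction above 1, and stayed between 1847 and 2061 with the other tools, scalings and filters and between 1362 and 1975 with each further library left out.

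Deviations of same-numbered libraries correlated at -0.026 to 0.088 and those of differently numbered libraries at -0.093 to 0.073, so the replicate numbers showed no pairing. Whether sites or treatments share animals under another numbering is not known from the labels. With the replicate block, 50 genes passed over 12 libraries and 2024 over 11.

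Closed gaps numbered 213 and opened gaps 197 without descending control replicate 3, against 31 and 28. With a gap threshold of 1.5 on the log2 scale, opened gaps fell to 13 over 12 libraries and to 65 over 11, and closed gaps to 122 over 11. With a threshold of 0.5, closed gaps were 367 and opened gaps 413 over 11 libraries. Of 741 alternatives for the 39 named genes that passed over 12 libraries, 576 kept the call, 165 kept the direction only and 0 reversed, and the causes were not tested. Depth limited genes near the floor, such as *Olfml2a* and *Bmp3* with TGFβ.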
